A study of Mus musculus with 8 samples.

Results

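The genes described here are the 70 protein-coding genes of the mouse annotation GENCODE M21 (genome build mm10), of 21951 in all, whose symbols begin with Hnrnp (20 genes), Srsf and a digit (11 genes) or Rbm and a digit (39 genes). Membership follows the symbol and uses no measured value. RNA bound by NONO was collected by immunoprecipitation (RIP-seq) from nuclei of the livers of C57BL/6 wild-type mice at 14 weeks of age, which had been trained to eat in the dark part of a 12 h light and 12 h dark day. One immunoprecipitate came from fasted mice at zeitgeber time 10 h, one from mice re-fed for 2 h (zeitgeber time 14 h) and one from mice re-fed for 10 h (zeitgeber time 22 h). Another used IgG, and its feeding state is not given in the sources used here. Each of these 4 libraries, and each of the 4 matching inputs, pooled 2 experiments, so every group is 1 library, no difference has a replicate check, and feeding state and time of day cannot be told apart.

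hnRNP proteins coat nuclear pre-mRNA and often repress splice sites, SR proteins (the Srsf genes) bind exonic enhancers and recruit the spliceosome, and RBM proteins are a mixed class named for their RNA recognition motif. Many of these genes regulate their own mRNA. They retain introns or include "poison" exons, whose premature stop codon sends the transcript to nonsense-mediated decay. NONO is a nuclear RNA-binding protein found in paraspeckles, nuclear bodies that also hold RBM14 and several hnRNP proteins.

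The sequences that follow lie under NONO peaks of these genes, and are shown for the sites that the results below describe in detail. They are not typical of the members' peaks, most of which lie in plain introns. The peaks that the rule for sequences picked in Hnrnpu (2 h) and Rbm47 lie in untranslated exons and are not shown. The first set is the first 30 bases of 3 exons, all under IgG-free peaks (peaks that no IgG peak overlaps), that transcripts marked for nonsense-mediated decay carry, in mm10, written 5′ to 3′ on the gene's strand, with the premature stop codon in capitals. The Srsf11 exon is 109 bases long (bases shown chr3:158024202-158024231, minus strand), reaches its stop after 20 bases and lay under the fasted and 2 h peaks. The Rbm39 exon is 55 bases long (bases shown chr2:156176428-156176457, minus strand), reaches it after 16 bases and lay under a 2 h peak. The Srsf5 exon is 266 bases long (bases shown chr12:80947116-80947145, plus strand), is a longer form of a coding exon, reaches its stop after 12 bases and lay under the fasted and 10 h peaks.
Srsf11: ttcttttccctggttcagccTGAactatat
Rbm39: agctcaaagtgcttcaTAAtaactacctca
Srsf5: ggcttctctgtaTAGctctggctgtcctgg

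The second set comes from bases that the peaks of all 3 times shared. The Hnrnph1 window (chr11:50380749-50381048, plus strand) lies in intron 5 and holds an exon of 145 bases, in capitals, that the transcript Hnrnph1-208, annotated as non-coding, has there. The other windows lie in introns that annotated transcripts retain, namely Srsf11 (chr3:158024737-158024925, minus strand), Rbm15 (chr3:107327246-107327545, minus strand) and Hnrnpa2b1 (chr6:51467729-51468028, minus strand). There, capitals mark any match to 5 short motifs searched on the gene's strand.
Hnrnph1: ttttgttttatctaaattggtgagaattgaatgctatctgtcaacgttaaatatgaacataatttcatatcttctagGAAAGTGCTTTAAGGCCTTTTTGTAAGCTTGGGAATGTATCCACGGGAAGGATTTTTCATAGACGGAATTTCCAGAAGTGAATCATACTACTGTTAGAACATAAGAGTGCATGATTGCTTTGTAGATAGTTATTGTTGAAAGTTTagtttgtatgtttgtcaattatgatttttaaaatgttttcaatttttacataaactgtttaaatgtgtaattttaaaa
Srsf11: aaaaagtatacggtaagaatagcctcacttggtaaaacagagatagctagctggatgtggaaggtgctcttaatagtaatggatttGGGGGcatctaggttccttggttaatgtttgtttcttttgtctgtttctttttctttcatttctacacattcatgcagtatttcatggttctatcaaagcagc
Rbm15: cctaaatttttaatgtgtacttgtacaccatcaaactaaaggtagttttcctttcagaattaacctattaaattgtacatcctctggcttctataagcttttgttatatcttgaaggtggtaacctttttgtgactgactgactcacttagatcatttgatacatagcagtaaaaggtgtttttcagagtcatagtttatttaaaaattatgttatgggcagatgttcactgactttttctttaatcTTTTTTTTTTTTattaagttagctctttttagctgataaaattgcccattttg
Hnrnpa2b1: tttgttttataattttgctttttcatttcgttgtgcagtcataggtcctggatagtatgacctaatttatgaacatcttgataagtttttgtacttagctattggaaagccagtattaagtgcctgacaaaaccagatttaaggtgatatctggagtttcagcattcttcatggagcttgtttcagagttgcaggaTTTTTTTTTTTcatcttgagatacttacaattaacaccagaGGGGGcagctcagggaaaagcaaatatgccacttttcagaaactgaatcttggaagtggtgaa
The motifs were TAGGG (known as preferred by hnRNP A1), GGGGG (by hnRNP F/H), GAAGAA (by SR proteins), CACACA (by hnRNP L) and TTTTTT (by hnRNP C). Matches to different motifs do not overlap in these windows, while the runs of T hold overlapping matches to TTTTTT. The Rbm15 window held a run of 12 T, the Hnrnpa2b1 window a run of T and 1 GGGGG, and the Srsf11 window 1 GGGGG, while the Hnrnph1 window held none of the 5. GC content was low, at 28.3% (Hnrnph1), 29.7% (Rbm15), 36.0% (Hnrnpa2b1) and 37.0% (Srsf11). Sequence was at hand only for peak centres (300 bases) inside 1 annotated exon of any transcript, which were 21 of 157 fasted, 31 of 259 2 h and 27 of 228 10 h peaks over these genes. TTTTTT stood in 57.1%, 29% and 44.4% of them, against 33.6%, 32.5% and 35.6% of such centres over all protein-coding genes, and GGGGG in 28.6%, 16.1% and 3.70% against 10.1%, 11.8% and 9.66%. In the IgG list TTTTTT stood in 26.7% against 23.7% and GGGGG in 16.7% against 14.3%. The members' shares swung widely between lists of so few centres, and no motif stood above the background in every NONO list.

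Over the 70 genes lay 157 peaks (130 kb of gene body) in the fasted list, 259 (325 kb) at 2 h, 228 (227 kb) at 10 h and 238 (257 kb) in the IgG list. A peak is a stretch that the authors called at 2-fold or more over the matching input, and it counts for a gene body it overlaps by 1 bp. Its level is given in normalised tags, the sequenced fragments in the whole peak per 10000000 of the library. Genes with a peak numbered 42 of 70 in the fasted list, where 28.4% of all protein-coding genes had one. They were 48 at 2 h (background 33.9%), 43 at 10 h (32.7%) and 41 in the IgG list (34.6%). The members thus carried peaks more often than protein-coding genes at large in every list, IgG included.

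An IgG-free peak, which no IgG peak overlaps, was found over 38 members in the fasted list (background 26.4%), 43 at 2 h (31.3%) and 40 at 10 h (30.0%). Of the peaks over members, 56.1%, 52.1% and 54.4% were IgG-free in the order fasted, 2 h and 10 h, below the 65.3%, 60.1% and 59.8% over all protein-coding genes. The members' peaks were also weaker over input, with a median fold of 2.33, 2.39 and 2.34 against 2.79, 3.09 and 2.81. Only 18.5%, 22.4% and 22.8% of them reached 3-fold, against 43.4%, 53.1% and 42.7% over all genes. IgG peaks over members had a median fold of 2.77 against 4.16. How much of this signal is particular to NONO was not tested.

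The members' excess rested mostly on peaks under 3-fold. These need not be small in tags. The median member peak held 28.5, 33.7 and 29.8 tags (fasted, 2 h, 10 h), against 17.1, 17.1 and 18.1 over all protein-coding genes. In IgG it held 21.4 against 11.1. A 3-fold rule also leaves out large IgG-free sites described below, such as that of Hnrnph1 at 2 h (566.1 tags, 2.04-fold). With peaks of at least 3-fold, 18 members had one in the fasted list (25.7%, background 21.0%), 23 at 2 h (32.9%, 27.3%), 23 at 10 h (32.9%, 24.7%) and 26 in IgG (37.1%, 30.3%). An IgG-free peak of that fold was found over 10 members fasted (14.3%, background 19.3%), 21 at 2 h (30.0%, 25.1%) and 18 at 10 h (25.7%, 22.3%). These shares lie near the background, and the fasted IgG-free share lies below it.

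**Figure D1:**
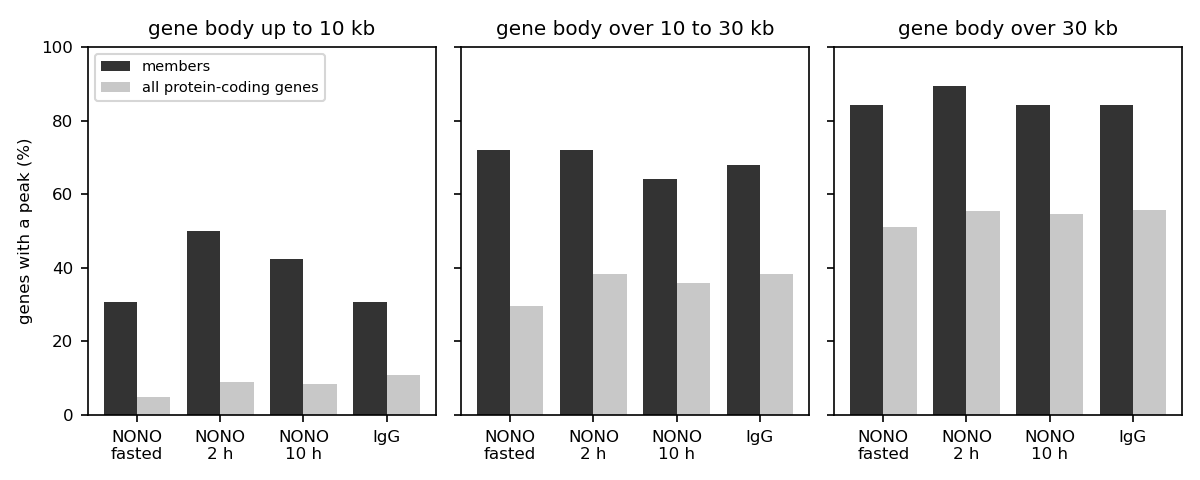
Share of genes with a peak (vertical axis, percent) in each of the 4 lists, for the 70 members (dark bars) and all protein-coding genes (light bars), in 3 classes of gene body length. Among genes up to 10 kb, 30.8% to 50.0% of members and 5.02% to 10.8% of all genes had a peak, and the IgG bars follow the NONO bars.

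The members were not longer genes, with a median body of 13.2 kb against 17.4 kb. In each length class a larger share of members than of all genes had a peak, as the bars by length class show. As a ratio the gap was widest among short genes, but in percentage points it was widest at 10 to 30 kb in the fasted and IgG lists. Of the 26 members up to 10 kb, 8, 13 and 11 had a fasted, 2 h and 10 h peak (30.8%, 50.0% and 42.3%) against 5.02%, 9.07% and 8.32% of all such genes. IgG peaks lay over 8 of these 26 (30.8% against 10.8%). Within the members, longer genes had more peaks, with a Spearman rho over 70 genes of 0.601 to 0.633 in the 4 lists, where all points share their library.

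Of the 70 members, 53 had a peak in at least 1 NONO list (75.7%, background 40.0%) and 35 at all 3 times (50.0%, background 23.5%). Every one of the 20 Hnrnp genes had a peak in at least 1 NONO list and 15 had one at all 3 times. Of 11 Srsf genes, 7 had a NONO peak and 4 had one at all 3 times, and of 39 Rbm genes, 26 and 16. IgG peaks lay over 17 of the 20 Hnrnp genes, 3 of the 11 Srsf genes and 21 of the 39 Rbm genes. The only NONO peaks of Hnrnpa0 and Hnrnpdl covered 44 and 83 bp of the gene. The 17 members without a NONO peak were Srsf1, Srsf2, Srsf6, Srsf12, Rbm7, Rbm11, Rbm15b, Rbm20, Rbm24, Rbm31y, Rbm38, Rbm42, Rbm43, Rbm44, Rbm46, Rbm4b and Rbm8a2, of which Rbm7, Rbm20 and Rbm4b had IgG peaks. A missing peak does not show that the RNA was unbound or absent. The smallest peak the authors allowed had 11 tags, or 5.23 (fasted), 5.22 (2 h) and 6.02 (10 h) normalised tags.

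A single IgG peak over Rn7sk took 37.5% of the IgG library, so that IgG values would be 1.6 times as high without it. That scaling turns some comparisons with IgG. Of 34 members with peaks in the fasted and IgG lists, 18 had more fasted tags, but 8 of these fall below IgG when it is rescaled (Hnrnpa2b1, Hnrnph1, Hnrnpr, Rbm10, Rbm25, Rbm33, Rbm6 and Srsf3). At 2 h 9 of 30 do so (Hnrnpa3, Hnrnpab, Hnrnpf, Hnrnpl, Hnrnpll, Hnrnpu, Hnrnpul1, Rbm26 and Rbm5). At 10 h 11 of 28 do so (Hnrnpd, Hnrnph1, Hnrnpl, Hnrnpll, Rbm12, Rbm26, Rbm39, Rbm45, Rbm5, Rbm6 and Srsf11). IgG values below are as deposited. The Rn7sk peak also left fewer IgG tags for calling other IgG peaks. An IgG-free peak is thus one where no IgG peak was called, not one shown to lack IgG signal.

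**Figure D2:**
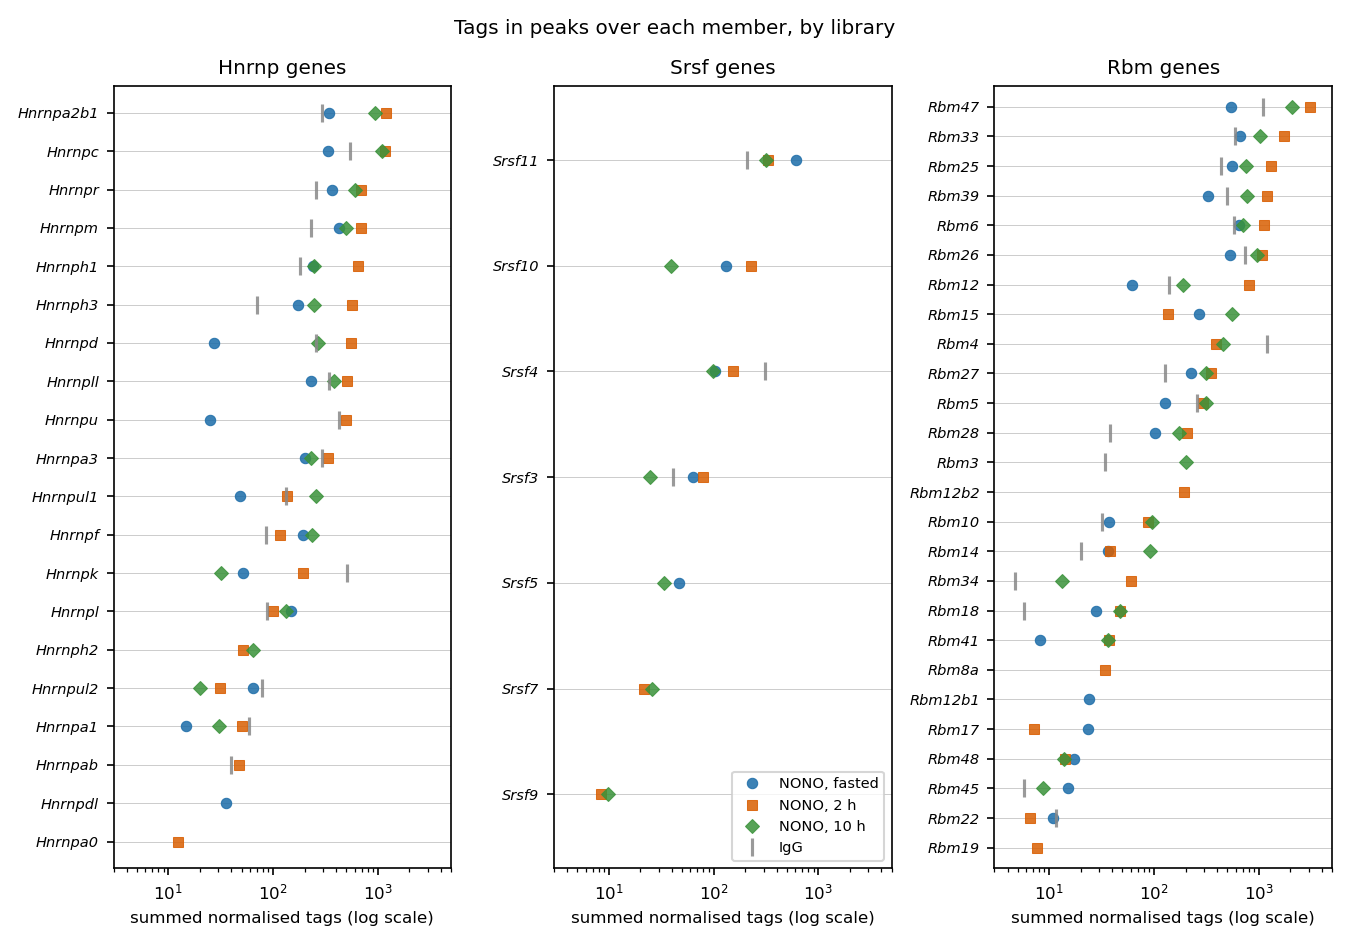
Normalised tags summed over all peaks of each gene (horizontal axis, log scale) in the fasted (circles), 2 h (squares), 10 h (diamonds) and IgG (bars) libraries, for the 53 members with a NONO peak; a gene without a peak in a library has no symbol there. Of the 53 genes, 31 were highest at 2 h, while Srsf11 was highest in the fasted list (618.0) and Rbm15 at 10 h (560.3).

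Among the SR protein genes, Srsf11, an SR-related factor, carried the most tags in the NONO lists, with 618.0 in the fasted list, 331.4 at 2 h, 316.8 at 10 h and 206.3 in IgG. The fasted value was the highest and the re-fed values were near each other. Most of the difference came from 1 stretch of intron 3 (chr3:158024016-158025206, 3774 bases of intron), with 501.1 tags fasted, 285.9 at 2 h and 207.9 at 10 h and no IgG peak. This stretch holds the decay exon printed above, which the 10 h peak did not touch. Srsf10, which encodes a splicing repressor, had 131.7, 225.7 and 38.9 tags and no IgG peak. The fasted and 2 h lists both had a peak near its start and a peak at its end, 2 h had 2 more between them, and the single 10 h peak lay in an untranslated exon.

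Srsf3 and Srsf5 carried peaks in introns that annotated transcripts retain. Srsf3 had 64.1 tags in the fasted list, 79.7 at 2 h, 24.6 at 10 h and 41.1 in IgG. At both earlier times 2 IgG-free peaks sat in its first, retained intron (26.1 and 38 tags fasted, 20.9 and 19.9 at 2 h), whereas the single 10 h peak lay further along and met an IgG peak. Srsf5 had 1 peak of 46.6 tags fasted and 1 of 33.9 at 10 h in nearly the same place, none at 2 h and none in IgG. Srsf4 had 103.2, 153.6 and 99.0 tags, all under its IgG value of 313.1. Srsf7 (21.8 at 2 h, 25.7 at 10 h) and Srsf9 (8.53 and 9.85) had peaks only after re-feeding and none in IgG.

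The hnRNP A/B and D type genes (7) held 618 tags in the fasted list, 2180 at 2 h, 1460 at 10 h and 934 in IgG. Hnrnpa2b1 accounted for more than any other of them, with 340.4, 1182.9 and 931.9 tags against 290.6 in IgG. Its peak in the retained intron near the start was found at all 3 times (340.4, 546.2 and 279.1 tags), IgG-free fasted and at 10 h but meeting the edge of an IgG peak at 2 h. Much of its re-fed sum came from long peaks that run from the gene's end into Nfe2l3 (591.7 tags at 2 h and 652.8 at 10 h), where IgG also had a peak of 261.6. Counting each peak only by the share of it within the gene gave 340, 616 and 281 tags, which puts 10 h under fasted. Hnrnpd, whose protein binds AU-rich RNA, had 1 fasted peak of 27.1 tags and 6 peaks of 556.6 tags at 2 h, 7 of 270.4 at 10 h and 5 of 255.9 in IgG. Hnrnpa1 stayed under its IgG value of 58.5 (14.7, 50.3 and 30.1), and no peak over it was IgG-free. Its 2 h peak lies almost wholly beyond the gene's end, over Nfe2, and covers 35 bp of Hnrnpa1, and by the share within the gene the 2 h value is 0.767, under the fasted one.

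The hnRNP F/H genes (4), whose proteins bind runs of G, held 606, 1390 and 791 tags against 336 in IgG. Hnrnph1 had 239.2 tags fasted, 648.6 at 2 h and 244.6 at 10 h against 181.1 in IgG. Its intron 5 site (chr11:50380321-50381434), which holds the 145-base exon printed above, carried 239.2, 566.1 and 244.6 of these, and the nearest IgG peak was 984 bp away. Hnrnph3 showed a like order, with 171.6, 504.0 and 222.2 tags in intron 1 and no IgG peak there. Both sites had most tags at 2 h, where their peaks were also widest (1113 bp against 500 and 723 in Hnrnph1, 3824 bp against 935 and 1107 in Hnrnph3). Tags per kb were 478, 509 and 338 in Hnrnph1, and 184, 132 and 201 in Hnrnph3, where 2 h was the lowest. Hnrnpf was lowest at 2 h (194.9, 117.1 and 237.0), and Hnrnph2 had peaks only after re-feeding (51.7 and 64.0).

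Among the other hnRNP genes (9), with 1700, 4000 and 3010 tags and 2600 in IgG, Hnrnpu stood out. Its protein is a chromatin-associated scaffold. It had 1 fasted peak of 24.7 tags, 3 IgG-free peaks of 492.1 tags at 2 h and none at 10 h, while IgG had 423.2 tags elsewhere in the gene. Hnrnpc, which binds runs of U, had 332.4, 1174.0 and 1099.3 tags against 543.8 in IgG, and only 1 of its 12 NONO peaks, at 10 h, was IgG-free. Hnrnpk had 51.3, 192.0 and 31.7 tags, under its IgG value of 509.1.

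Within Hnrnpk, though, 1 small site was found at all 3 times at almost the same bases (chr13:58392563-58393078, intron 17), with 22.3, 24.7 and 17.5 tags, 2.65-, 2.91- and 2.60-fold over input and no IgG peak. It covers Mir7-1, the hairpin of a microRNA made from this intron, and no other member peak lay over a small RNA gene. Reads of the hairpin and of the host intron cannot be told apart in a peak of 500 bp. RefSeq gives the hairpin (GRCm38.p6, chr13:58392779-58392886, minus strand) and the mature strand as follows, with the 5p arm in capitals in the first and the seed (bases 2 to 8) in the second.
Mir7-1 hairpin: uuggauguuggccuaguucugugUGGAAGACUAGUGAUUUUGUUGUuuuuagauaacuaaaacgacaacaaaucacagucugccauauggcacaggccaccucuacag
miR-7a-5p: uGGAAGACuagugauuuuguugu

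The largest sums belonged to Rbm genes. Rbm47, a cofactor of apolipoprotein B mRNA editing with a body of 157 kb, had 541.9 tags in 12 peaks fasted, 3071.6 in 35 at 2 h, 2085.0 in 23 at 10 h and 1092.1 in 35 in IgG. Peaks covered 5.29%, 32%, 18.1% and 23.5% of its body, so the sums moved with the covered length. Rbm33 (660.4, 1745.2 and 1035.3 against 587.5 in IgG) and Rbm26 (528.2, 1082.1 and 951.6 against 734.4), both linked to nuclear RNA decay and export, were likewise lowest fasted and highest at 2 h. Rbm27, related to Rbm26, had 12, 12 and 11 peaks, of which 8, 7 and 7 were IgG-free (227.8, 352.7 and 314.1 tags against 128.0).

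Rbm15, whose protein guides the RNA methyltransferase that makes N6-methyladenosine, differed in order, with 268.6 tags fasted, 135.6 at 2 h and 560.3 at 10 h and no IgG peak. Each value was 1 peak in the same retained intron, and the 10 h peak was the widest (3151 bp against 1318 and 877). Tags per kb were 204, 155 and 178, so the density varied less than the sum.

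Of the 13 Rbm genes of the spliceosome and splicing regulators, 8 had a NONO peak. Rbm6 had the most IgG-free peaks of all members fasted and at 10 h (10 of 13 and 14 of 21) and 11 of 22 at 2 h. Rbm25, which acts with the U1 particle, had 559.3, 1320.1 and 754.0 tags against 434.9 in IgG. Rbm39, related to the 3′ splice site factor U2AF, had 330.0, 1209.6 and 776.4 against 501.6. One IgG-free 2 h peak of 550.5 tags, over the decay exon printed above, made up much of the 2 h sum, with no peak there in the other 3 lists. Rbm5 and Rbm10, relatives of Rbm6, were higher after re-feeding (128.3, 290.6 and 315.1, and 37.5, 86.7 and 96.2), against 257.5 and 32.1 in IgG. Rbm17 had 23.3 tags fasted, 7.11 at 2 h and no peak at 10 h or in IgG.

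Rbm14, the paraspeckle member, had 36.6 tags fasted, 37.9 at 2 h and 91.9 at 10 h against 20.0 in IgG, all in its introns. All of these peaks also lay within the overlapping gene Gm21992, and strand was not used in peak calling. Rbm3, the cold-inducible RNA-binding protein gene, had peaks only at 10 h among the NONO lists (200.8 tags) and 33.7 tags in IgG. Of its 2 peaks at 10 h, 1 of 79.3 tags over the gene's end was IgG-free.

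Members with a peak at 1 NONO time only were few. They were Hnrnpdl and Rbm12b1 in the fasted list (2 of 70, background 1.64%), Hnrnpa0, Hnrnpab, Rbm12b2, Rbm19 and Rbm8a at 2 h (5, 3.77%) and Rbm3 at 10 h (1, 3.17%). Most were small, such as Hnrnpa0 with 12.3 tags and Rbm19 with 7.59, while Rbm12b2 had 193.0 in a peak mostly beyond its end. Peaks at all 3 NONO times and none in IgG were found over Rbm15, Rbm41, Rbm48 and Srsf10 (4, 1.75%). Rbm41 had 8.08, 37.0 and 36.1 tags and Rbm48 had 17.1, 14.2 and 13.7, so the sum of Rbm48 was level over time within its counting intervals. Its tags per kb were 34.2, 18.2 and 21.7.

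**Figure D3:**
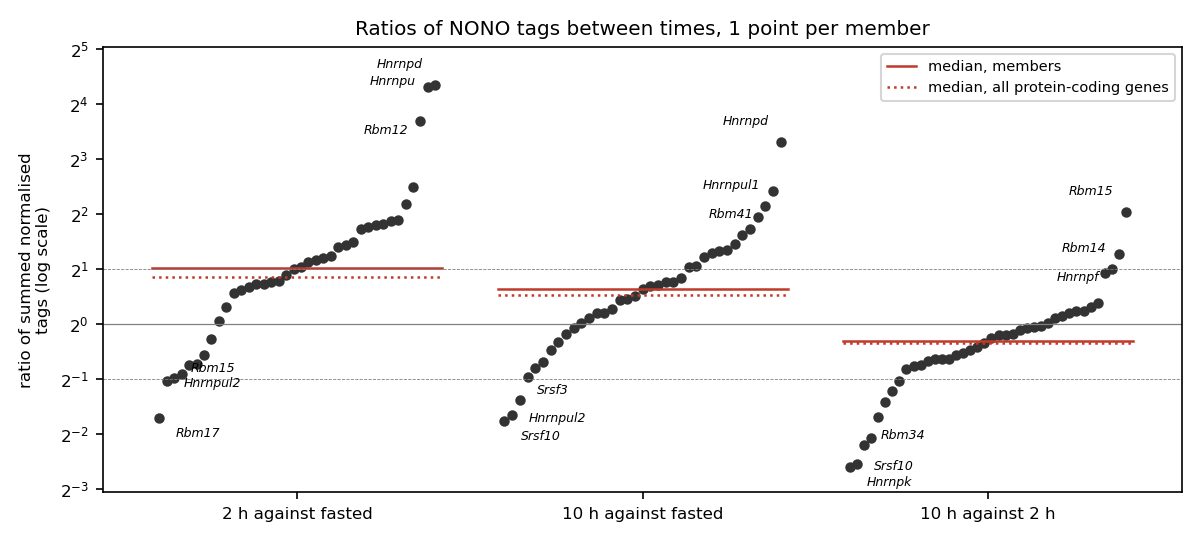
Ratio of summed normalised tags between 2 NONO lists (vertical axis, log scale) for each member with a peak in both (points, in order of ratio), with the median of members (solid line) and of all protein-coding genes (dotted line). The medians lie close to each other in each pair (2.04 and 1.82, 1.57 and 1.44, 0.814 and 0.79).

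Between times, the members moved with the lists as a whole. Of 38 members with a peak fasted and at 2 h, 20 had at least 2-fold more tags at 2 h, or 52.6%, where 45.3% of 5582 genes did. At least 2-fold fewer were found for 2 (Hnrnpul2 and Rbm17, background 7.69%). From fasted to 10 h, 13 of 37 were 2-fold higher (background 32.1%) and 3 lower (Hnrnpul2, Srsf3 and Srsf10, 9.06%). From 2 h to 10 h, 3 of 40 were higher (Hnrnpf, Rbm14 and Rbm15, 12.8%) and 8 lower (Hnrnpd, Hnrnph1, Hnrnph3, Hnrnpk, Rbm12, Rbm34, Srsf3 and Srsf10, 23.9%). These shares lie near the background, as the plot of ratios shows for the medians. The covered length moved alike, with a median ratio of 2.05, 1.55 and 0.74, and tags per covered base by 0.97, 0.878 and 1.13. Comparisons that share a list are not independent of each other.

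The largest ratios of 2 h to fasted were 20.5 for Hnrnpd, 19.9 for Hnrnpu, 12.9 for Rbm12 and 5.67 for Rbm47. Of the 6 peaks of Hnrnpd at 2 h only 1 was IgG-free, and no re-fed peak overlapped its fasted peak. Its IgG-free peaks alone held 27.1 tags fasted, 35.6 at 2 h and 66.2 at 10 h. The 2 h sum of Rbm12 (798.9 against 61.8) holds 1 peak of 574.2 tags that runs beyond the gene's end and overlaps Cpne1, and is 359 by the share within the gene. The smallest were 0.305 for Rbm17, 0.491 for Hnrnpul2, 0.505 for Rbm15 and 0.536 for Srsf11. From fasted to 10 h, Hnrnpd (9.98), Hnrnpul1 (5.39), Rbm41 (4.47) and Rbm47 (3.85) stood highest and Srsf10 (0.295), Hnrnpul2 (0.317), Srsf3 (0.384) and Srsf11 (0.513) lowest. Of these 4 lowest, 3 were SR protein genes, whose family sum was 964 tags fasted, 821 at 2 h and 549 at 10 h. The Hnrnp sum was 2920, 7570 and 5270 and the Rbm sum 4260, 12200 and 8820. In IgG the 3 sums were 560, 3870 and 5900. Without Srsf11 the Srsf sums were 346, 489 and 232 tags, and 354 in IgG, so their order over time rests on that gene.

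**Figure D4:**
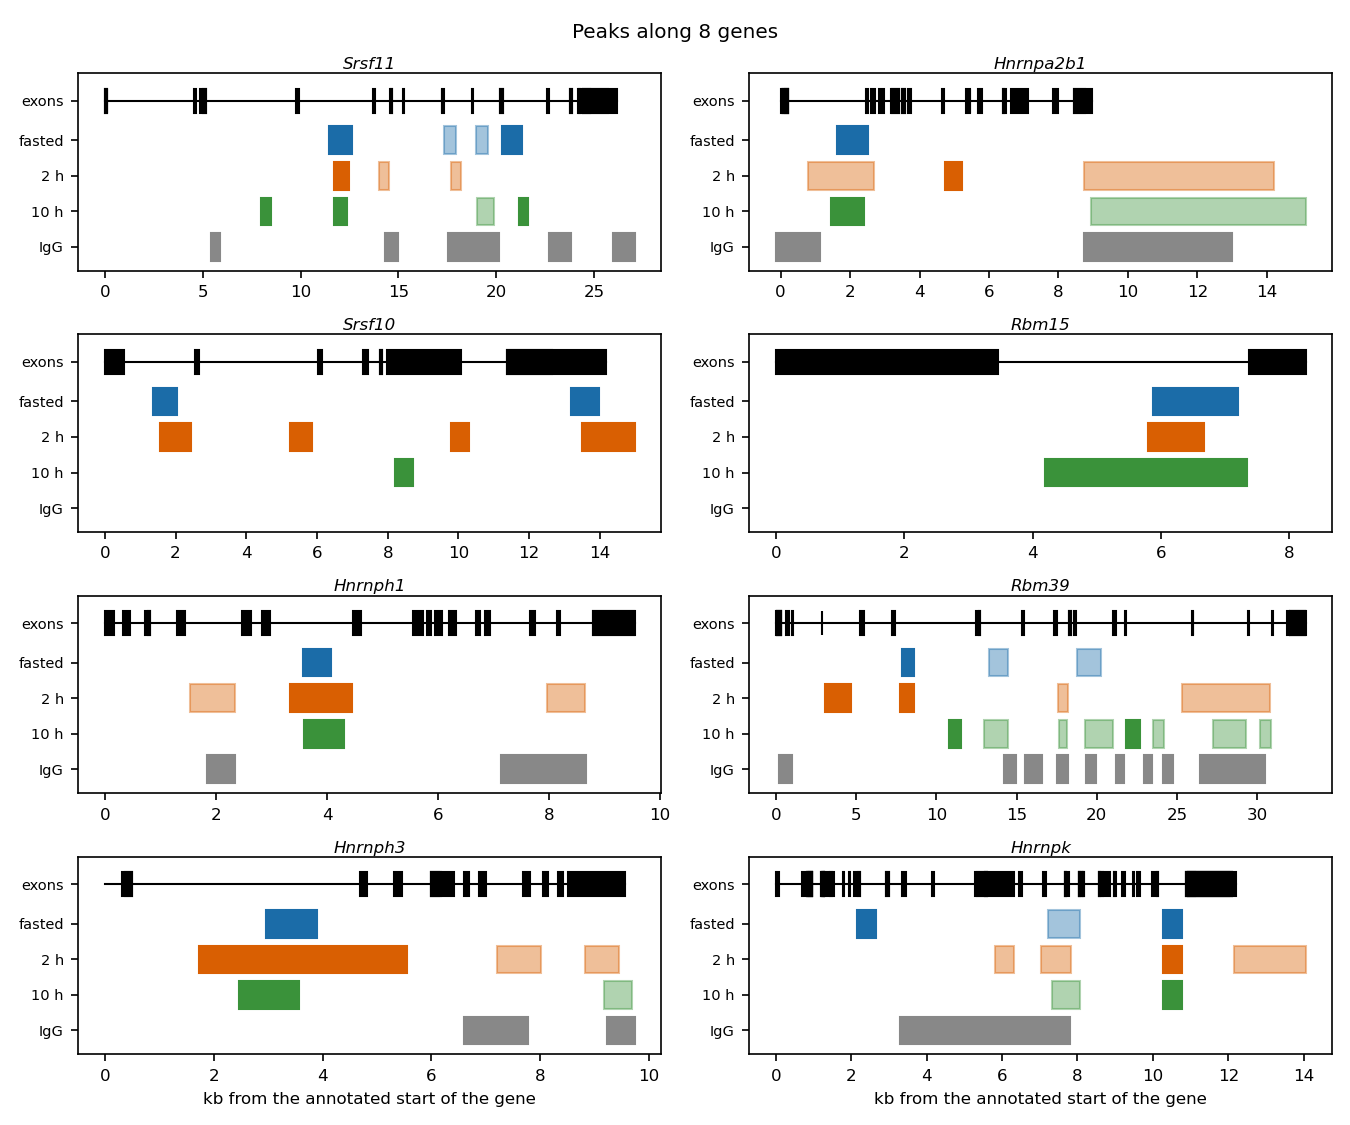
Peaks along 8 genes, with distance from the annotated start in kb (horizontal axis), exons of coding transcripts as black boxes, and 1 row for each list. Full colour marks NONO peaks that no IgG peak overlaps and pale colour those that one does; IgG peaks are grey. The shared sites of Srsf11, Hnrnph1, Hnrnph3, Rbm15 and Hnrnpk line up over the 3 NONO rows.

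By midpoint, 90.2% (exact 95% binomial interval 84.3 to 94.4) of fasted, 91.9% (87.7 to 95) of 2 h, 91.4% (86.9 to 94.7) of 10 h and 90.6% (86.2 to 94.0) of IgG peaks within members lay in introns of coding transcripts. Introns made up 85.2% of the members' bodies. Over all protein-coding genes the shares were 97.4%, 97.5%, 97.2% and 97.8% of peaks and 92.9% of bodies. These intervals cover counting error only. Midpoints in introns that some transcript retains were 9.55%, 8.11%, 6.14% and 7.98% of member peaks in the same order, where such introns take 6.2% of the bodies. Over all genes they were 2.54%, 2.61%, 2.64% and 2.97% of peaks and 1.52% of bodies, so relative to the bodies the members' share was not larger. Peaks running over the gene's end numbered 5 of 157, 14 of 259, 9 of 228 and 5 of 238, or 3.18%, 5.41%, 3.95% and 2.10%, against 0.86%, 0.989%, 0.926% and 0.603% over all genes. The members' share was thus higher in IgG too. It was not adjusted for gene length, and the members are shorter (median 13.2 kb against 17.4 kb). The 4 intervals of the intron share overlap.

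Exons found only in decay transcripts numbered 29, in 17 members, whose 70 bodies span 1.88 Mb. Over all 21951 protein-coding genes they numbered 3506, in 1816 genes and 1070 Mb of bodies, so they are denser in the members. NONO peaks lay over 8 of the members' 29, in 7 genes, and IgG peaks over 6. Of member peaks, 1.27%, 2.32%, 0.877% and 1.68% touched such an exon in the order fasted, 2 h, 10 h and IgG, against 0.363%, 0.452%, 0.342% and 0.409% over all genes. These shares were not adjusted for the density of such exons, and the members' share was higher in IgG too. IgG-free NONO peaks lay over 3, the Srsf11 and Rbm39 exons printed above and 1 in Rbm18 (94 bases, under a fasted peak of 19.5 tags). The Srsf5 exon is not among the 29 because it overlaps a coding exon.

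Peaks that overlap between times were joined into sites. Over the members lay 396 sites, of which 63 (15.9%) were found at all 3 times, against 11.9% over all protein-coding genes. Free of IgG and found at all 3 times were 23, or 5.81% of sites against 4.17% over all protein-coding genes. They lay in 17 members (24.3%, where 10.8% of genes had such a site), a gap that also holds the members' more frequent peaks. Of these 23 sites, 19 had an intronic midpoint, and 19 had bases that the peaks of all 3 times shared. The sites without shared bases lay in Hnrnpm, Rbm25, Rbm33 and Rbm5. At Hnrnpdl only the fasted peak reached the gene body, the others lying just past its end.

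**Figure D5:**
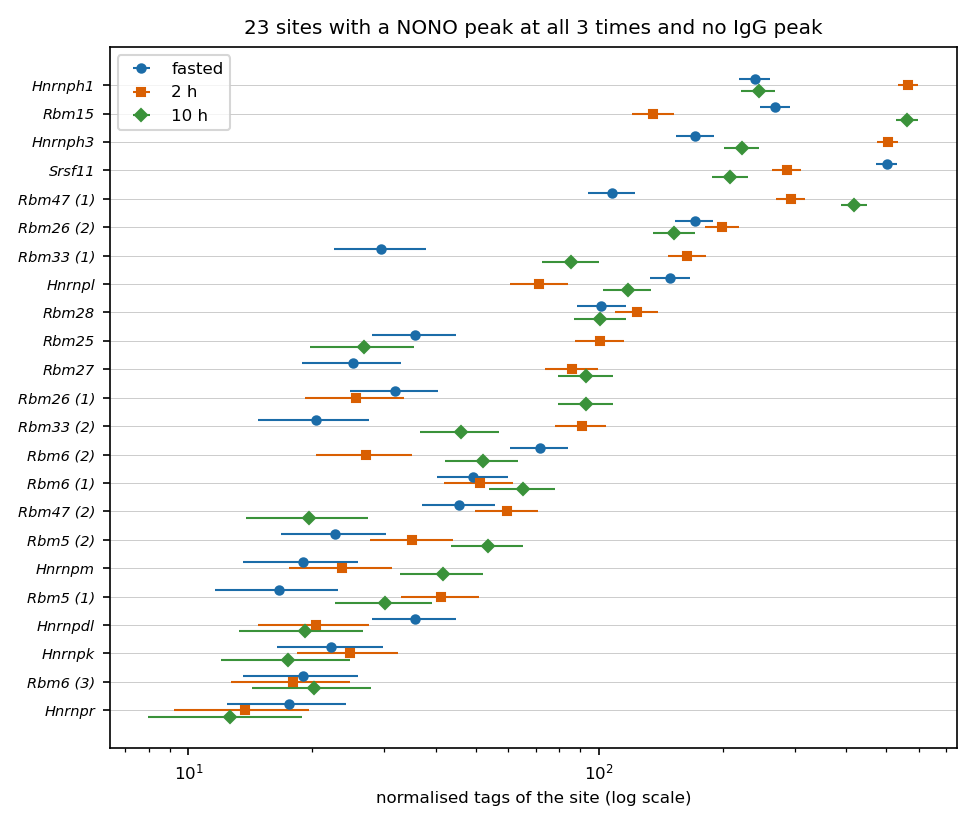
Normalised tags (horizontal axis, log scale) of the 23 sites with a NONO peak at all 3 times and no IgG peak, with exact 95% Poisson intervals that cover counting error only; sites of 1 gene are numbered by position. Only Hnrnph1 and Srsf11 exceeded 200 tags in every list, and no single order of the 3 times holds for all sites.

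The plot of these sites shows each order of the 3 times. The 2 h value was the highest at 10 sites, the 10 h value at 8 and the fasted value at 5. Highest at 2 h were, among others, Hnrnph1, Hnrnph3 and Rbm25 (35.7, 100.5 and 26.8 tags in intron 17). At Rbm25 the fasted and 10 h peaks share no base and are joined only through the 2 h peak. Its sums and tags per kb thus compare different stretches. Highest fasted were Srsf11 and Hnrnpl, whose protein binds CA repeats (148.8, 71.5 and 117.6 in intron 2). Highest at 10 h were Rbm15 and the last exon of Rbm47 (107.5, 292.5 and 417.0). These sums move with the width of the peak. By tags per kb the highest time became 10 h at Rbm25 (41.1, 47.9 and 53.6), 2 h at the last exon of Rbm47 (215, 345 and 319) and, as given above, 10 h at Hnrnph3 and fasted at Rbm15, while it stayed fasted at Srsf11 (421, 368 and 320) and Hnrnpl (88.4, 43.3 and 69.5). The sums of the sites of Rbm28 (101.3, 123.3 and 100.7) and of intron 1 of Rbm6 (19.0, 18 and 20.2) were level within counting error. Tags per kb were 64.3, 57.9 and 60.2 at Rbm28. At the Rbm6 site they fell (27.7, 21.4 and 15.2) while its peaks widened.

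A list of 52 other splicing genes, such as Tra2b, Ptbp1 and Sf3b1, had peaks still more often than the members, over 45 fasted (86.5%), 44 at 2 h (84.6%), 45 at 10 h (86.5%) and 46 in IgG (88.5%). This list was not matched to the members by length, and holds long genes such as Celf2 (970 kb) and Rbfox2 (228 kb). Of members over 30 kb, 84.2%, 89.5%, 84.2% and 84.2% had a peak in the same order, near the shares of the list. Of those with peaks at both times, 21 of 42 were 2-fold higher and 0 lower at 2 h than fasted, 12 and 3 of 44 at 10 h than fasted, and 2 and 14 of 43 at 10 h than at 2 h. Tra2b, a partner of SR proteins, had 252.4, 861.1 and 1025.4 tags against 252.8 in IgG.

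The 4 libraries held 18275033 to 21091048 tags. Of 10 hepatocyte markers, 4, 4, 7 and 7 had a peak in the order fasted, 2 h, 10 h and IgG (summed tags 6830, 11100, 17300 and 15400). Kupffer cell markers had 2, 3, 4 and 3 of 7 (23.8 to 74.5 tags) and endothelial markers 2, 2, 3 and 2 of 6 (293 to 726). Stellate markers had 2, 2, 2 and 5 of 6 (47.1, 40.8, 82.0 and 2490 tags, of which Reln held 2081.1 in IgG). Lymphocyte and erythroid markers had 1 of 6 in each (44.8 to 136) and cholangiocyte markers 0 of 5. Peaks are called over the matching input, so these counts are no direct measure of cell number or RNA amount. In bulk nuclei, fewer cells of a type, less RNA per cell and less pull-down over input cannot be told apart.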

How the data were processed

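Per the submitters' processing notes, FastQC 0.11.2, STAR 2.4.0k and HOMER were used on mm10. Peaks were called by the authors, per the file headers, in each immunoprecipitate against its input, in 500 bp windows joined within 1000 bp, on both strands together, at 2-fold or more and at least 11 tags (8 in IgG). The deposited signal is tags in the peak per 10000000 library tags, the deposited fold is the authors' ratio over input, and the deposited score is HOMER's peak score. Fold and score only described or filtered peaks.

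Peaks were laid on GENCODE M21 gene bodies (scipy 1.17.1, pandas 2.3.3, numpy 2.4.6, Python 3.11.15), and overlaps were tested on simulated data. Tags of a peak counted whole for every gene it overlapped. With 1 library per group no test was run, and a 2-fold rule described differences among genes with peaks in both lists. Members, lists and named genes were chosen with earlier results of these data known. The genes named are those with most IgG-free peaks, most tags, the extreme ratios or peaks at 1 time only, and a preset list including Hnrnpa1, Srsf1 to Srsf7 and Rbm47. The sites at all 3 times, the other examples, and the Rbm15, Hnrnpa2b1 and Srsf5 sequences were chosen after their values were seen. The peaks of Hnrnpu (2 h) and Rbm47 that the sequence rule picked were not printed. Transcript sequences are GENCODE M21.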

Additional observations from a re-analysis of the deposited data

How the results depend on the processing

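Of 62 alternative values for 17 results, 37 stayed within the set limits and 25 moved. Keeping only peaks of at least 3-fold over input left 18, 23 and 23 members with a fasted, 2 h and 10 h peak and 26 with an IgG peak, and 10, 21 and 18 with an IgG-free peak, near the share of all genes as given above. It raised the intron share to 98.0% at 10 h and 95% in IgG. Members 2-fold higher at 2 h than fasted became 6 of 13 (10 of 32 with IgG-free peaks only). Those lower became 0 of 13 (4 of 32 with IgG-free peaks only, 1 of 35 in equally long lists). At 10 h against fasted 7 of 12 were higher and 1 lower, and at 10 h against 2 h 2 of 15 were lower. Fewer peaks enter each of these and fewer members are compared, so a smaller count need not be a smaller share. The shares of all genes under these settings are not given here. Counting a peak as intronic only where it overlaps no exon gave 74.5%, 72.8%, 81.9% and 71.9% (fasted, 2 h, 10 h, IgG), and exons of all transcripts gave 79.7%, 82.9%, 83.7% and 81.7%. Leaving out peaks over another gene, an alternative chosen after seeing the data, moved no IgG-free count beyond the limits. No paired analysis was possible because there is 1 library per group. Depth limits what can be seen to peaks of at least 11 tags.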
